A study of Mus musculus with 6 samples.

Results

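The GIMAP genes (GTPases of the immunity-associated protein family) are described here in mouse thymocytes in which the gene Tox was or was not targeted. The 8 genes, Gimap1, Gimap3, Gimap4, Gimap5, Gimap6, Gimap7, Gimap8 and Gimap9, were chosen by their gene symbol from the 22298 genes listed in the deposited tables. Each symbol matched 1 row, and no other listed symbol begins with Gimap except theirs.

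GIMAP proteins are small GTP-binding proteins found mainly in lymphocytes, and several are anchored in membranes of the endoplasmic reticulum, lysosomes or mitochondria. They are known as factors of lymphocyte survival: loss of Gimap5 causes lymphopenia in rats and mice, and Gimap1 is needed for the upkeep of mature T and B cells. In mammals their genes lie side by side in 1 cluster.

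The study compared messenger RNA of C57BL/6 thymocytes labelled double-negative, which is the name of immature T cell precursors without CD4 or CD8 on their surface, while the protocol speaks of DN2 cells, a stage within that population. Toxf/f samples carry floxed Tox alleles, and Toxf/fPdcd1Cre samples carry the same alleles with Pdcd1Cre, a recombinase whose name points to Pdcd1, which encodes PD-1. All samples are listed as untreated, and each genotype had 3, replicates 1 and 2 from animals 3 weeks old and replicate 3 from animals 4 weeks old. Replicates 1 and 2 of Toxf/f had the same value for every gene and the same column heading, so they entered as 1 sample and the comparison was of 2 Toxf/f with 3 Toxf/fPdcd1Cre libraries. The labels do not tell animals of the same age apart. By the labels the Toxf/f libraries came from animals of different age, as did Toxf/fPdcd1Cre replicate 3 and the other replicates of its genotype. The spread within each genotype is therefore not technical alone, and p-values describe the spread between these libraries only.

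The libraries held 14245492 to 16199195 estimated counts. The targeted gene Tox had 1896 and 1746 counts in Toxf/f, and 281, 257 and 201 counts with Pdcd1Cre. Rag1, Cd8a and Cd4 ranked 3, 26 and 105 among tested genes by mean level, which goes against libraries of double-negative cells alone, so that name is used only as the labels give it. Toxf/fPdcd1Cre replicate 1 stood apart from the others in the chromosome Y gene Ddx3y, at 0.068 CPM (counts relative to scaled library size) against 53.8 to 81.6 CPM.

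The family lies on chromosome 6 from 48647234 to 48770851 in GRCm38 (GENCODE M21), a stretch of 123.6 kb, with 6 genes on the plus strand and 2 on the minus strand. In order of position these are Gimap8 (48647234 to 48660875, plus), Gimap9 (48676129 to 48679114, plus), Gimap4 (48684549 to 48692060, plus), Gimap6 (48701582 to 48708225, minus), Gimap7 (48718621 to 48724636, plus), Gimap1 (48739054 to 48743795, plus), Gimap5 (48746197 to 48754210, plus) and Gimap3 (48764464 to 48770851, minus). The build behind the deposited files is not given in the sources used here, and genes were matched to these positions by Ensembl identifier. Gimap7, Gimap1 and Gimap5 lie within the span of Gm28053, an annotated gene on the same strand, and Gimap1 overlaps Gimap1os on the opposite strand.

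Some members share sequence, which bears on how reads were counted. Of all stretches of 50 bases in annotated Gimap3 transcripts, 7.52% also occur in Gimap5 transcripts, and 4.53% of those of Gimap5 occur in Gimap3. No other pair of members shared such a stretch. Gimap1 shared 32.45% of its stretches with Gimap1os, which reads without strand cannot separate, and any use of strand is not given in the sources used here. No listed gene carries the symbol Gimap1os, and Gm28053 held 6.42 to 21.23 counts per library. The counts of Gimap1 were not whole in any library and those of Gimap5 in 3 of 5, while those of the other 6 members were whole throughout.

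Promoter sequences are shown for Gimap4 and Gimap3, the 2 members with the largest falls, each with a neighbour that did not pass the test, Gimap9 beside Gimap4 and Gimap5 beside Gimap3. Each run gives the 250 bases before the transcription start from RefSeq (GRCm38.p6), 5′ to 3′ on the gene's strand. Capitals mark matches to 7 short motifs searched on both strands. These were CACCC for the KLF factors, TGTGGT for RUNX proteins, CCGGAA for the ETS family, AGATAA for the zinc finger proteins of the GATA family, CANNTG for the E-box, CTTTGA for the TCF/LEF factors, and TATAAA for the core promoter element called the TATA box.
Gimap9 (chr6:48675885-48676134, plus strand): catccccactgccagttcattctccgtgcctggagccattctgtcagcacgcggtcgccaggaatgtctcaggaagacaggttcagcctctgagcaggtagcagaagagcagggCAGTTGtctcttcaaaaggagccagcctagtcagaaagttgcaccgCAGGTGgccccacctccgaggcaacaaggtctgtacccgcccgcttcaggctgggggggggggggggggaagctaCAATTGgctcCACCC
Gimap4 (chr6:48684328-48684577, plus strand): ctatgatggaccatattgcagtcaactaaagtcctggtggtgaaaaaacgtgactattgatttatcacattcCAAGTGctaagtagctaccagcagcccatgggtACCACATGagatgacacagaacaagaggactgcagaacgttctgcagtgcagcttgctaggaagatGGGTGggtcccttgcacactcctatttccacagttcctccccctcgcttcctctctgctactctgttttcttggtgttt
Gimap5 (chr6:48745947-48746196, plus strand): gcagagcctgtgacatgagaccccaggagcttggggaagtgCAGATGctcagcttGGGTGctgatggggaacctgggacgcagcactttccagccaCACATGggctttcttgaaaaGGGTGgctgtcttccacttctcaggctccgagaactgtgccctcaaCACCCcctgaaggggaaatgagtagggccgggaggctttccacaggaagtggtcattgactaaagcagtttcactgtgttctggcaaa
Gimap3 (chr6:48770852-48771101, minus strand): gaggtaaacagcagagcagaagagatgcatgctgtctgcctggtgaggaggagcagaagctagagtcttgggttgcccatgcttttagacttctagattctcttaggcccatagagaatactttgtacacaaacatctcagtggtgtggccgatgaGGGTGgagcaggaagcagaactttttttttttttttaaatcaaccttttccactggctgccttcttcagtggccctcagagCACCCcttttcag

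All 8 members matched a RefSeq promoter. The KLF letters were in 5 of 8 members' windows (Gimap8, Gimap9, Gimap4, Gimap5 and Gimap3), against 51.3% of 27025 RefSeq promoters of the same length. The E-box letters were in 6 of 8, against 66% of promoters. Only Gimap4, Gimap7 and Gimap1 among the members held the RUNX letters, which 14.2% of promoters held. In Gimap4 the RUNX match, at position -145 from the start, overlaps an E-box match. The ETS, GATA and TCF/LEF letters were in no member's window and in 12.2%, 10.3% and 14% of promoters, and the TATA box letters were in that of Gimap6, against 13%. These are matches of letters in 1 window for each gene. Of the printed windows all 4 held the KLF letters, Gimap4 but not Gimap9 held the RUNX letters, and Gimap5 but not Gimap3 held the E-box letters.

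The comparison of Toxf/fPdcd1Cre with Toxf/f asks how transcripts of each GIMAP gene differ when Tox is targeted by Pdcd1Cre. No sample carried Pdcd1Cre without floxed Tox, so an effect of Pdcd1Cre itself cannot be told apart from that of targeting Tox. Of the 8 members 4 fell (Gimap3, Gimap4, Gimap7 and Gimap8), 0 rose and 4 did not pass the test (Gimap1, Gimap5, Gimap6 and Gimap9). All 8 had passed the filter on low counts. Across the 14121 genes tested 1.51% were called lower and 0.135% higher, in the quasi-likelihood test of edgeR, with p-values adjusted over all tested genes (Benjamini-Hochberg) and a threshold of 0.05. Members' library values lay wholly below those of Toxf/f for 6 of 8, where 13.5% of tested genes did so. The median log2 fold change over the members was -0.58, beside 0.025 over all tested genes. In these bulk libraries fewer cells of a type and less RNA per cell cannot be told apart.

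**Figure D1:**
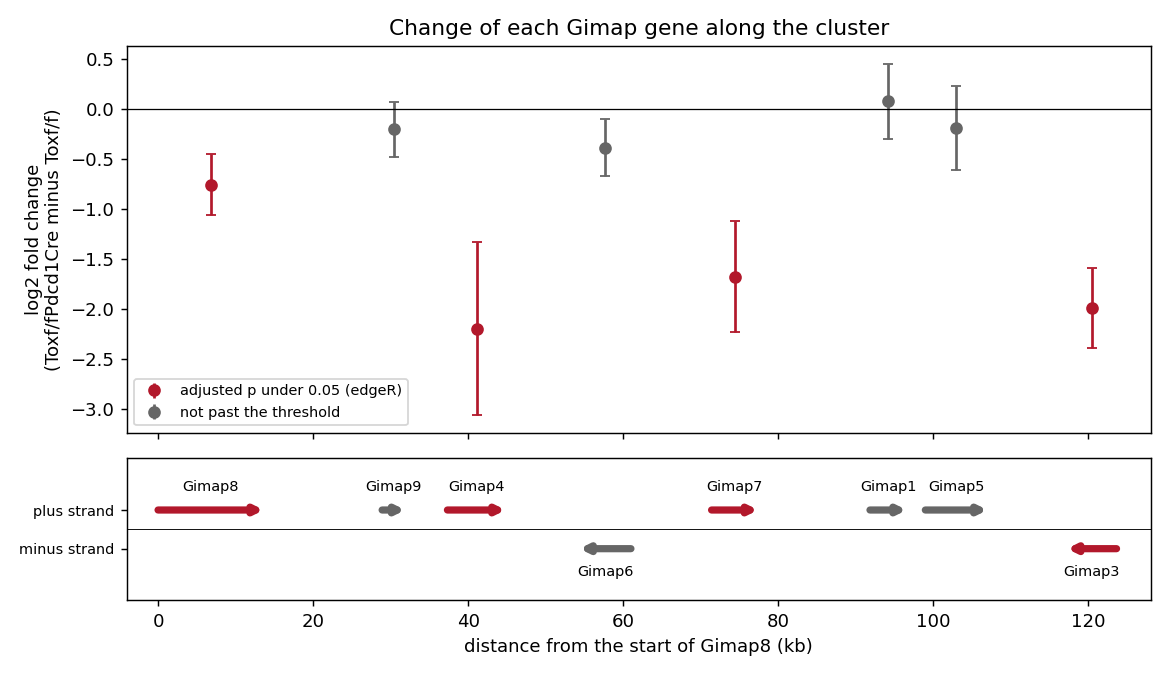
Upper panel, log2 fold change (Toxf/fPdcd1Cre minus Toxf/f) of each gene with its 95% interval from edgeR; lower panel, the genes as arrows by strand, at their distance in kb from the start of Gimap8. The 4 genes in red, Gimap8, Gimap4, Gimap7 and Gimap3, passed the test, and no pair of them is adjacent.

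Gimap3, a close relative of Gimap5 that has been tied in mice to the segregation of mitochondrial DNA, was at 51.2 and 58.9 CPM in the Toxf/f libraries and at 13.1, 17.2 and 11.1 CPM in the Toxf/fPdcd1Cre libraries. The groups were far apart, with the highest Toxf/fPdcd1Cre library at a level well under the lowest Toxf/f library. Mean levels were 55.1 ± 5.44 CPM in Toxf/f (SD, n = 2) and 13.8 ± 3.1 CPM with Pdcd1Cre (SD, n = 3), a log2 fold change of -2.00 ± 0.182 (SE) with an adjusted p of 0.000353 (edgeR). Gimap3 was the only member called under each of the 18 alternative settings tried, with a log2 fold change between -2.19 and -1.86. It was lower at both ages, by a difference of -1.77 on the log2 CPM scale at 3 weeks (1 against 2 libraries) and -2.41 at 4 weeks (1 against 1, no test).

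Gimap4, reported to speed the death of T cells once apoptosis has begun, was at 107 and 126 CPM in the Toxf/f libraries. In the Toxf/fPdcd1Cre libraries it was at 47.2, 15.0 and 14.2 CPM. The genotypes did not overlap, but replicate 1 of Toxf/fPdcd1Cre stood about midway on the log scale between the other libraries of its genotype and Toxf/f. Its log2 fold change of -2.20 ± 0.395 (SE) passed with adjusted p = 0.0172 (edgeR). This was a 4.59-fold lower level, and 8.23-fold without that library (adjusted p = 8.88e-05). The call ended when the library of Toxf/f replicates 1 and 2 was left out (adjusted p = 0.164) and when Toxf/f replicate 3 was (adjusted p = 0.294). It also ended with DESeq2 (adjusted p = 0.0797) and where genes needed 10 CPM in 3 libraries (adjusted p = 0.0946).

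Toxf/fPdcd1Cre replicate 1, with the most Gimap4 of its genotype, also lay apart as a whole: on the first principal component of all tested genes it stood at -8.19, where replicates 2 and 3 stood at 35.8 and 37.9 and the Toxf/f libraries at -25.4 and -40.1. It was the highest of its genotype for 9 of 18 genes of a mature T cell list, and for 5 of the 7 of them that passed the test. Replicate 2 was the highest for 8 of the 18 and for 2 of the 7, and replicate 3 for 1 of the 18. The list as a whole thus does not set replicate 1 apart from replicate 2, and the share over all tested genes was not counted. Slfn1 was at 13.5 CPM in Toxf/fPdcd1Cre replicate 1, against 5.23 and 3.65 CPM in replicates 2 and 3. Ccr7, the receptor that guides maturing thymocytes to the medulla, was at 29.3 CPM there, against 19.98 and 15.3 CPM. S1pr1, the receptor for thymic exit, was at 14.9 CPM there, against 8.05 to 9.0 CPM. Gimap3, Gimap7 and Gimap8 did not have their highest Toxf/fPdcd1Cre value in that library. Klf2, on the same list, was not highest there, at 12.8 CPM against 13.5 and 12.7 CPM. Aire, a gene of thymic epithelium, was at 13.8 CPM there against 4.28 and 3.71 CPM. The part of these differences in the Gimap4 values was not tested.

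Gimap7, whose human counterpart hydrolyses GTP through dimer formation, was the member with the fewest counts in the Toxf/fPdcd1Cre libraries. It had 195 and 171 counts in Toxf/f, and 49, 49 and 61 counts with Pdcd1Cre. In CPM these were 12.5 and 10.3 against 3.35, 3.13 and 4.20, with no overlap and little spread within either genotype. The gene fell 3.20-fold, a log2 fold change of -1.68 ± 0.255 (SE) with an adjusted p of 0.00682 (edgeR). Without either Toxf/f library its call ended (adjusted p = 0.141 without that of replicates 1 and 2, and 0.0963 without replicate 3).

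Gimap8, the family member with several GTP-binding domains in 1 protein, was at 78.6 and 69.2 CPM in the Toxf/f libraries and at 43.9, 39.4 and 47.5 CPM in the Toxf/fPdcd1Cre libraries. The groups did not overlap, and the fall was the smallest of the 4 that were called. It was 1.69-fold lower, a log2 fold change of -0.76 ± 0.140 (SE) with an adjusted p of 0.0201 (edgeR). This call, too, was lost without either Toxf/f library (adjusted p = 0.242 without that of replicates 1 and 2, and 0.166 without replicate 3), and with age as a covariate, where the log2 fold change stayed at -0.76 (adjusted p = 0.0541).

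**Figure D2:**
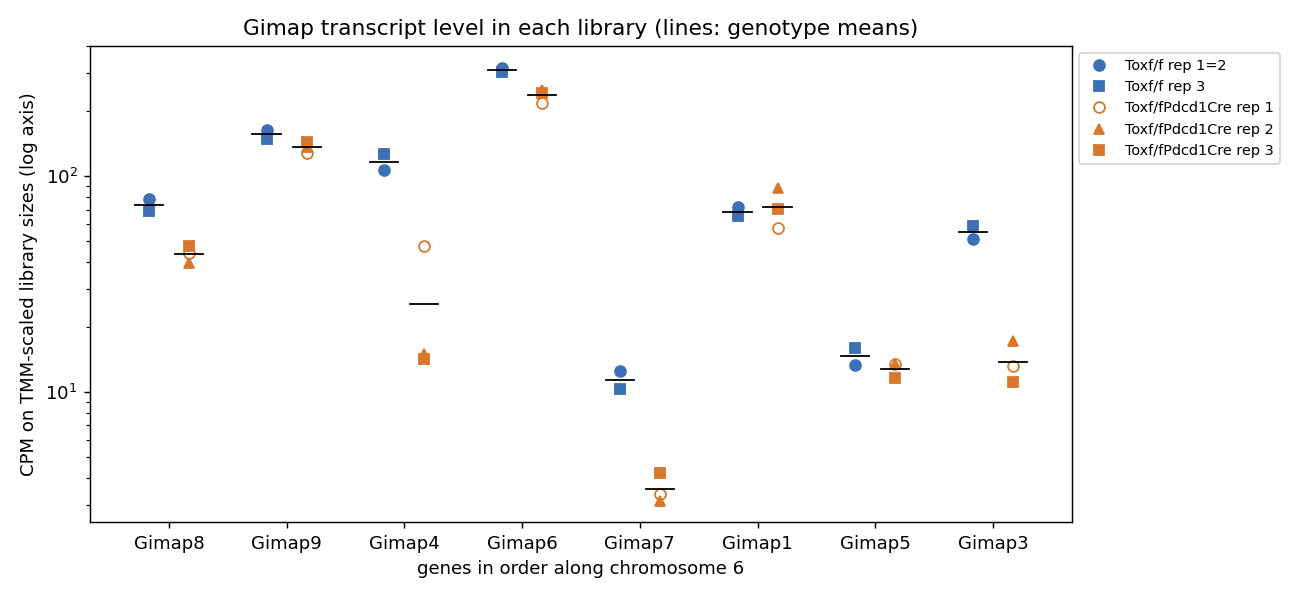
Level of each gene in CPM on a log axis, with 1 point for each distinct library (blue Toxf/f, orange Toxf/fPdcd1Cre; "1=2" is the library shared by replicates 1 and 2) and a line at each genotype's mean. Orange points lie below blue points for Gimap8, Gimap9, Gimap4, Gimap6, Gimap7 and Gimap3 and mix with them for Gimap1 and Gimap5, and Toxf/fPdcd1Cre replicate 1 (open circle) is apart from its group at Gimap4.

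The other 4 members differed less. Gimap6, whose protein binds the autophagy protein GABARAPL2, was at 319 and 304 CPM in the Toxf/f libraries and at 220, 251 and 242 CPM in the Toxf/fPdcd1Cre libraries. The genotypes did not overlap, yet the log2 fold change of -0.39 ± 0.130 (SE), with a 95% interval from -0.68 to -0.10, did not pass after adjustment (adjusted p = 0.244, edgeR). Gimap9 was at 164 and 149 CPM against 129, 136 and 144 CPM. Its library values were also separate, by a small margin, and edgeR gave a log2 fold change of -0.21 ± 0.126 (SE), interval from -0.48 to 0.071 (adjusted p = 0.666).

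Gimap5 and Gimap1 overlapped between the genotypes. Gimap5 was at 13.3 and 16.02 CPM in Toxf/f and at 13.5, 13.4 and 11.6 CPM in Toxf/fPdcd1Cre libraries, a log2 fold change of -0.19 ± 0.191 (SE) with an interval from -0.61 to 0.23 (adjusted p = 0.847, edgeR). Gimap1 was at 71.6 and 65.1 CPM against 57.8, 88.0 and 70.3 CPM. Its log2 fold change was 0.076 ± 0.172 (SE), with an interval from -0.30 to 0.45 (adjusted p = 0.949, edgeR), and its sign turned without Toxf/fPdcd1Cre replicate 2 (-0.094). Both intervals lie above the fold changes of Gimap3, Gimap4, Gimap7 and Gimap8. The interval of Gimap8, from -1.07 to -0.45, overlaps that of Gimap5, so the intervals do not separate Gimap5 from Gimap8. Neither interval shows that Gimap1 and Gimap5 were at equal levels in the genotypes.

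Levels between the genes were compared per length, in FPKM, a value corrected for transcript length and library depth. In Toxf/f libraries Gimap6 was highest at 190 ± 1.13 FPKM (SD, n = 2), followed by Gimap9 at 124 ± 6.21, Gimap4 at 72.0 ± 9.0, Gimap1 at 50.5 ± 1.62, Gimap8 at 28.3 ± 2.19, Gimap3 at 26.5 ± 3.03, Gimap7 at 9.19 ± 1.11 and Gimap5 at 7.68 ± 1.14 FPKM. Neighbours in this order did not overlap in their library values except Gimap8 with Gimap3 and Gimap7 with Gimap5. In Toxf/fPdcd1Cre libraries (SD, n = 3) the order began with Gimap6 at 140 ± 6.04, Gimap9 at 103 ± 3.36 and Gimap1 at 51.3 ± 9.97 FPKM. Then came Gimap8 at 16.1 ± 1.61 and Gimap4 at 15.6 ± 11.9 FPKM, which overlapped, then Gimap5 at 6.45 ± 0.730 and Gimap3 at 6.37 ± 1.41 FPKM, which overlapped, and Gimap7 at 2.75 ± 0.392 FPKM. Gimap4 thus went from rank 3 to rank 5 by mean level, and Gimap5 from rank 8 to rank 6.

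The 8 FPKM values of the family summed to 506 and 511 in the Toxf/f libraries. In the Toxf/fPdcd1Cre libraries they summed to 340, 350 and 337. Gimap6 and Gimap9 made up 61.8% of the mean sum in Toxf/f, and 71.2% with Pdcd1Cre. Of the difference between the mean sums, Gimap4 accounted for 33.9% and Gimap6, which did not pass the test, for 30.1%. Gimap9, which did not pass either, accounted for 12.5%, Gimap3 for 12.1%, Gimap8 for 7.31% and Gimap7 for 3.87%. Gimap6 and Gimap9 thus made up most of the summed level in both genotypes. The difference was spread over members that passed the test and members that did not.

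**Figure D3:**
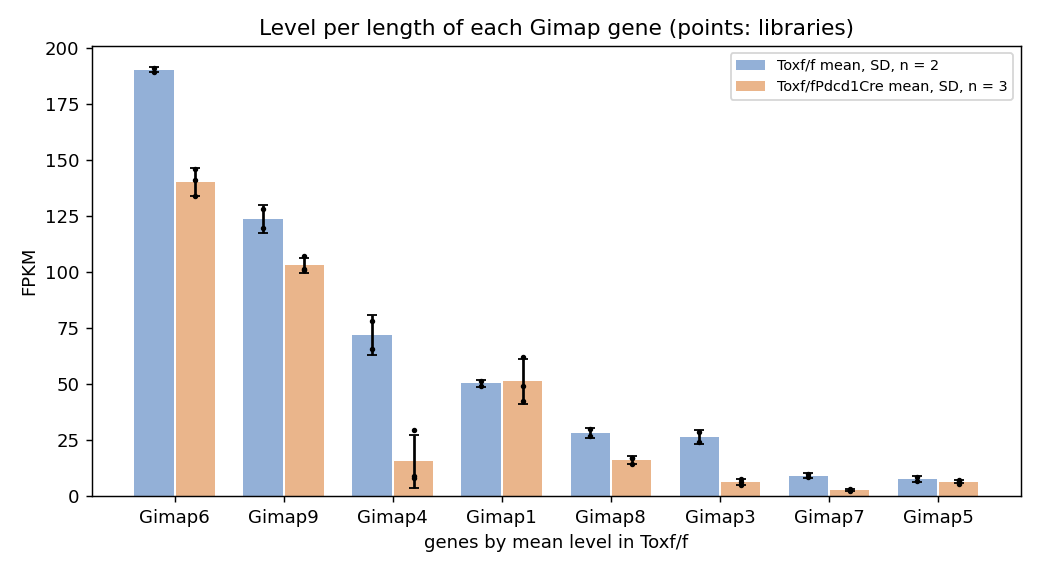
Level per length of each gene in FPKM, with bars at the genotype means (blue Toxf/f, n = 2; orange Toxf/fPdcd1Cre, n = 3), SD as error bars and points for libraries; genes are ordered by their Toxf/f mean. Gimap4 goes from 72.0 to 15.6 FPKM and Gimap3 from 26.5 to 6.37 FPKM, while Gimap1 stays near 51 FPKM in both genotypes.

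Neighbours along the chromosome were compared by the ratio of their counts within each library, which needs no scaling between libraries. The 7 ratios share genes with one another and with the fold changes above, so they are not independent evidence. The test of each was exact and two-sided, permuting genotype over the 5 libraries in all 10 ways, where the smallest possible p is 0.1, so that no pair could pass a threshold of 0.05. Library values of the ratio did not overlap between genotypes in 6 of 7 pairs, where this was so for 27.2% of 14090 pairs of tested genes next to each other anywhere in the genome. In 5 of 7 pairs the genotype means also differed by more than 1 on the log2 scale, which was so for 8.09% of such pairs.

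Gimap5 did not pass the test and its neighbour Gimap3 fell. The log2 value of their ratio was -1.95 and -1.88 in Toxf/f, and 0.037, -0.36 and 0.058 with Pdcd1Cre. Gimap3 had thus about 4 times the counts of Gimap5 in each Toxf/f library and about as many as Gimap5 in each Toxf/fPdcd1Cre library. The difference of 1.82 on the log2 scale had an exact permutation p of 0.1 (0.175 adjusted over the 7 pairs). These genes share some sequence, as given above. The counts of Gimap3 were whole in every library, and how reads of the shared sequence were counted is not given in the sources used here. Any effect of such reads on the ratio was not tested.

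Gimap4 stood apart from the neighbours on both of its sides. The log2 ratio of Gimap9 to Gimap4 was 0.62 and 0.24 in Toxf/f, and 1.44, 3.18 and 3.34 with Pdcd1Cre, a difference of 2.22 (exact permutation p = 0.2, adjusted 0.233). That of Gimap4 to Gimap6 was -1.58 and -1.27 against -2.22, -4.07 and -4.09, a difference of -2.04 (exact permutation p = 0.2, adjusted 0.233). In both ratios Toxf/fPdcd1Cre replicate 1 lay closer to the Toxf/f libraries than the other replicates did. Gimap7 likewise differed from both of its neighbours. The log2 ratio of Gimap6 to Gimap7 was 4.67 and 4.88 against 6.02, 6.32 and 5.84, a difference of 1.28, and that of Gimap7 to Gimap1 was -2.52 and -2.65 against -4.10, -4.80 and -4.05, a difference of -1.73 (exact permutation p = 0.1, adjusted 0.175, for each).

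At the left end of the cluster the ratio of Gimap8 to Gimap9 moved less. Its log2 value was -1.07 and -1.11 in Toxf/f, and -1.55, -1.79 and -1.60 with Pdcd1Cre, a difference of -0.55 (exact permutation p = 0.1, adjusted 0.175). The ratio of Gimap1 to Gimap5 was the only one in which the genotypes overlapped, with log2 values of 2.43 and 2.02 against 2.10, 2.72 and 2.60 and a difference of 0.25 (exact permutation p = 0.4). Those are the closest neighbours in the cluster, 2401 bases apart, and neither passed the test of its own. Along the chromosome genes that fell and genes that did not pass thus alternated, except for Gimap1 and Gimap5.

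**Figure D4:**
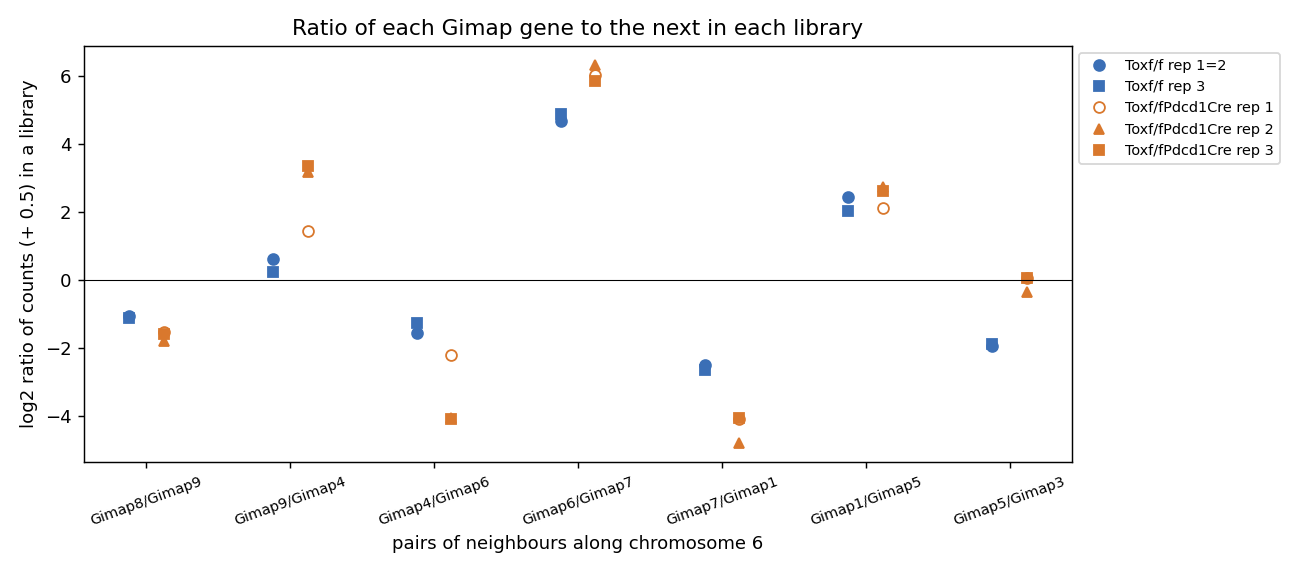
Log2 ratio of the counts of each gene to those of the next along chromosome 6, with 1 point for each distinct library (blue Toxf/f, orange Toxf/fPdcd1Cre). Blue and orange points are apart in 6 of 7 pairs and overlap in Gimap1/Gimap5, and Gimap5/Gimap3 goes from about -1.9 to near 0.

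Beyond the cluster the nearest listed genes were AI854703, 13.5 kb before it, and Tmem176b, 63.0 kb after it. AI854703 had a log2 fold change of 0.25 ± 0.439 (SE; adjusted p = 0.928, edgeR). Tmem176b, which encodes a membrane protein of myeloid and lymphoid cells, was at 115 and 114 CPM in Toxf/f and at 91.0, 75.4 and 56.8 CPM in Toxf/fPdcd1Cre libraries, and its log2 fold change of -0.62 ± 0.174 (SE) did not pass (adjusted p = 0.141, edgeR). Of 17 genes listed as flanking, 15 were tested, 0 were called in either direction and their median log2 fold change was 0.037. Of those tested, Zfp775, Repin1, Tmem176a, Tmem176b and Aoc1 are annotated in the stretch just around the cluster. The other tested genes of the list lie outside that stretch and may be on another chromosome. This count and median therefore do not describe the cluster's surroundings. Library values were wholly lower in Toxf/fPdcd1Cre for 4 of the 15 and wholly higher for 3. Over all tested genes 13.5% were wholly lower, and the share wholly higher was not counted. The 4 were Aoc1, with a log2 fold change of -1.81 ± 0.420 (SE; adjusted p = 0.0614, edgeR), Zfp467 at -0.83, Tmem176b and Tmem176a at -0.57, and the 3 were Xrcc2, Nos3 and Repin1, at 0.31, 0.41 and 0.25. Of the listed genes just around the cluster, Tmem176a, Tmem176b and Aoc1 were thus wholly lower and Repin1 wholly higher, while Zfp775 overlapped (log2 fold change 0.25). The genes of this list were named after their values were seen.

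Genes of pathways tied to GIMAP proteins were read in the same fit. Of 11 genes of the BCL2 family, some of whose proteins have been reported to bind GIMAP proteins, 1 fell and 0 rose, with a median log2 fold change of -0.13. The one that fell was Bcl2, the survival factor of resting lymphocytes, at 64.9 ± 0.911 CPM in Toxf/f (SD, n = 2) and 30.8 ± 2.45 CPM with Pdcd1Cre (SD, n = 3), a log2 fold change of -1.08 ± 0.134 (SE; adjusted p = 0.00240, edgeR). Mcl1 and Bcl2l1, which are also survival factors, stood at -0.12 and 0.12 (adjusted p = 0.901 and 0.851). Of 13 genes of the GABARAP and LC3 family and of core autophagy 0 fell and 0 rose, with a median of 0.058.

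Transcription factors of lymphocyte quiescence and T cell identity were counted as well. Of 18 listed, 3 fell and 0 rose, with a median log2 fold change of 0.014. Klf2, which drives the exit programme of mature thymocytes, was at 27.9 and 32.8 CPM in Toxf/f and at 12.8, 13.5 and 12.7 CPM in Toxf/fPdcd1Cre libraries (log2 fold change -1.23 ± 0.161, adjusted p = 0.00301, edgeR). Zbtb7b, the factor of CD4 lineage choice, and Lef1, a partner of beta-catenin, fell with log2 fold changes of -1.76 ± 0.261 and -0.70 ± 0.138 (adjusted p = 0.00590 and 0.0288, edgeR). The abundant Tcf7 and Satb1 stood at -0.038 and 0.065.

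Markers of thymocyte stages and of other cells that could be in the sort were set beside the family, and their part in the GIMAP result was not tested. Among the 18 mature single-positive T cell genes 7 fell and 0 rose, with a median log2 fold change of -0.61 and a summed level of 1613 to 1703 CPM in Toxf/f and 1237 to 1358 CPM in Toxf/fPdcd1Cre libraries, which did not overlap. Ccr7 had a log2 fold change of -2.19 and Slfn1 one of -2.42, where Gimap3 and Gimap4 stood at -2.00 and -2.20. Of 13 genes of double-positive thymocytes 0 fell and 0 rose, with summed levels of 11124 to 12307 CPM and 11308 to 14510 CPM. Of 13 early double-negative genes 2 fell (Flt3 and Cd44) and 0 rose, with summed levels of 454 to 650 CPM and 532 to 671 CPM. The median log2 fold change was 0.17 for the double-positive and -0.345 for the early double-negative genes.

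Endothelial cells also express GIMAP genes. Of 13 endothelial markers 0 fell and 0 rose, 8 had a log2 fold change below 0 with a median of -0.11, and their summed level was 299 to 319 CPM in Toxf/f and 256 to 362 CPM in Toxf/fPdcd1Cre libraries. Of 12 B cell genes 1 fell (Fcer2a), with summed levels of 81.9 to 114 CPM and 67.8 to 86.1 CPM. Of 10 tested natural killer cell genes, from 12 listed, 2 rose (Klrk1 and Klrb1c) and 0 fell, with summed levels of 114 to 118 CPM and 134 to 226 CPM. Of 12 dendritic cell genes 2 fell (Cd74 and Flt3), with summed levels of 3449 to 3880 CPM and 2550 to 2683 CPM, and of 12 macrophage and granulocyte genes 0 fell, with summed levels of 915 to 1097 CPM and 596 to 814 CPM. Both of these sums were lower in every Toxf/fPdcd1Cre library than in either Toxf/f library. Of 12 thymic epithelial genes 1 fell (Krt14), with summed levels of 2812 to 3246 CPM and 3136 to 3508 CPM. The median log2 fold change of the dendritic cell list was -0.656, with 11 of its 12 genes below 0. That of the mature T cell list was -0.61. Medians were -0.476 for B cell, -0.131 for natural killer cell, -0.275 for macrophage and granulocyte and 0.049 for thymic epithelial genes. Ccr9, a large part of the dendritic cell sum, had a mean of 1229 CPM in Toxf/f and 1130 CPM with Pdcd1Cre. No listed marker was at 0 in all libraries.

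The genes whose pattern was most like the family's were found by the distance between log2 CPM profiles over the 5 libraries, each centred on its own mean, against the mean profile of the 8 members. Among 9207 other genes with a mean of at least 10 CPM the nearest were Btla, an inhibitory receptor of lymphocytes, at a distance of 0.128, then Vim, the intermediate filament vimentin, at 0.160, Tnfrsf18, the receptor GITR, at 0.18, Bcl2 at 0.219 and Ubd, a ubiquitin-like modifier, at 0.225. Btla was at 29.6 and 30.7 CPM in Toxf/f and at 16.6, 16.9 and 16.03 CPM in Toxf/fPdcd1Cre libraries. The log2 fold changes of these 5 genes ran from -1.08 (Bcl2) to -0.87 (Btla). No member lay in that range, the nearest on either side being Gimap8 at -0.76 and Gimap7 at -1.68. The mean profile is thus an average that no single member showed. They were picked for likeness over the same libraries, so their fold changes are a description.

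Settings of the processing left the sign of 7 members' fold changes as it was, and moved calls. Gimap3 passed in 18 of 18 alternatives, Gimap7 in 14 of the 17 in which it was tested, Gimap8 in 14 of 18 and Gimap4 in 13 of 18, while Gimap1, Gimap5, Gimap6 and Gimap9 passed in 0. With 1 Toxf/f library left, of either of them, Gimap3 was the only member called.

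**Figure D5:**
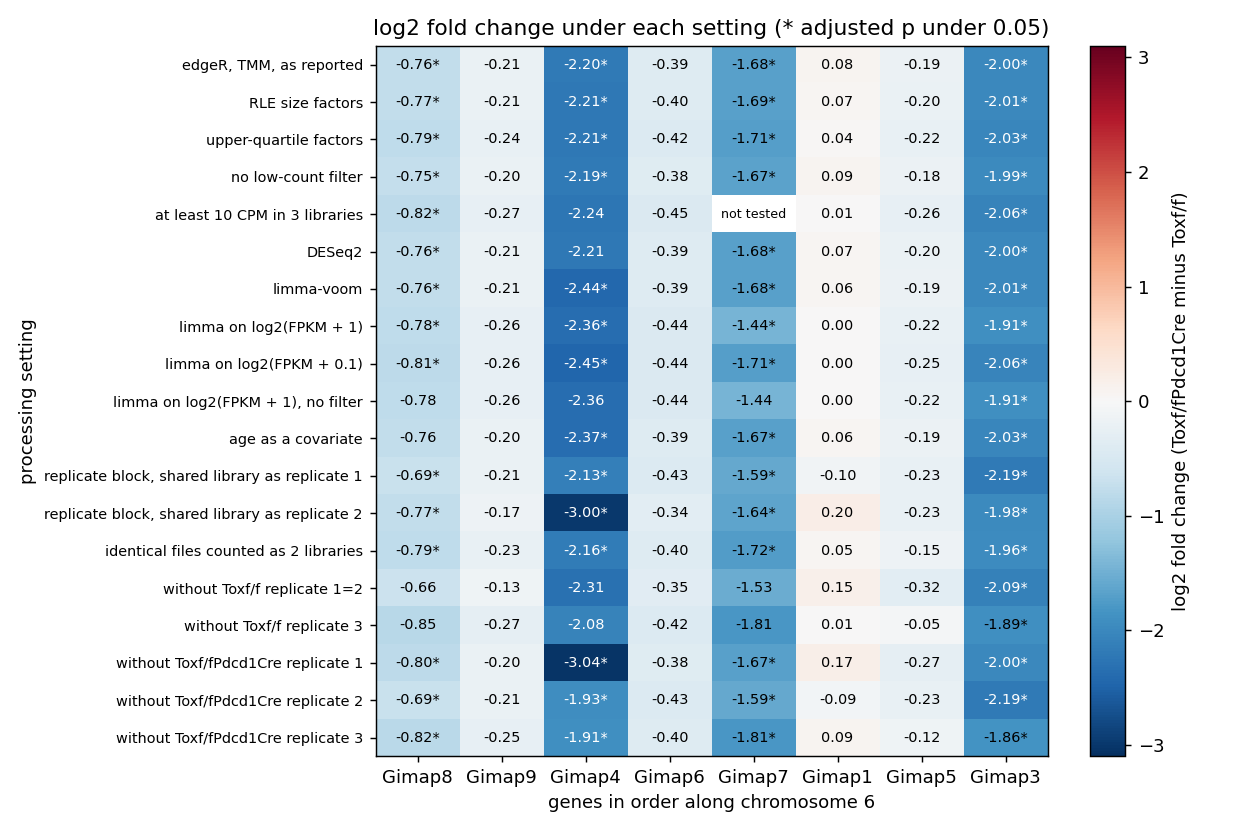
Log2 fold change of each gene (columns, in order along chromosome 6) under each processing setting (rows), with colour for the value and a star at an adjusted p under 0.05; "1=2" is the library shared by replicates 1 and 2. The Gimap3 column has a star in each row, and the stars of Gimap8, Gimap4 and Gimap7 are missing in both rows that leave out a Toxf/f library.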

How the data were processed

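For each sample the authors deposited 1 table with an estimated count (expected count, not always whole) and an FPKM value per gene, per the file headers. HISAT2, StringTie 1.3.1 and fastp 0.18.0 are named, without roles, per the submitters' processing notes. Counting tool, genome build and strand setting were not given in the sources used here. RNA came from sorted cells by Trizol, with NEBNext Ultra libraries, per the labels' protocols.

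The identical files of Toxf/f replicates 1 and 2 were counted once. Counts were rounded, filtered with filterByExpr (14121 genes left), scaled by TMM and tested with edgeR 4.0.16 (R 4.3.3) by its quasi-likelihood test without covariates, Benjamini-Hochberg adjusted over all tested genes. SE is the log2 fold change divided by the root of F, and 95% intervals use the test's degrees of freedom. Neighbour ratios used counts + 0.5. On simulated counts for this comparison (14121 genes, 200 changed) the test recovered 73.5% of 2-fold changes with 9 false calls and 96% of 4-fold changes with 11. The simulated counts had a spread set by level alone, no outlying library, and as many rises as falls. These rates may therefore not hold for the real libraries. Alternatives used other scalings and filters, DESeq2 1.42.0, limma 3.58.1 (voom, and log2(FPKM + 1) or + 0.1), age, replicate blocks and leaving out each library.

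Named genes were the 8 members, Tox, the nearest genes on either side, up to 4 called and the 2 most abundant of each list (some not printed), and the 5 of nearest profile; Ddx3y, Cd4 and further markers named for a count of 5 or fewer were added after their values were seen. Members and lists were chosen with earlier results of these data known.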

Additional observations from a re-analysis of the deposited data

How the results depend on the processing

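The count of genes changed was 232, and 417 with no low-count filter, 67 with at least 10 CPM in 3 libraries, 359 with DESeq2, 113, 101 and 44 with limma on log2(FPKM + 1), on log2(FPKM + 0.1) and on log2(FPKM + 1) without a filter, 125 with age as a covariate and 380 with the identical files counted as 2 libraries. Leaving out a library gave 31 (without Toxf/f replicate 3) to 606 (without Toxf/fPdcd1Cre replicate 1), with 49 when the library of Toxf/f replicates 1 and 2 was dropped and 114 when Toxf/fPdcd1Cre replicate 3 was. The cause of these shifts was not tested. Of the GIMAP members 4 were called, 2 with at least 10 CPM in 3 libraries (where Gimap7 was not tested), 1 with limma on log2(FPKM + 1) without a filter (adjusted p = 0.228 for Gimap4, 0.0667 for Gimap7 and 0.102 for Gimap8), and 1 to 4 when a library was left out, with 1 without either Toxf/f library, where the lone library is assumed to vary like the other genotype's.

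With the replicate number as a block the count of genes was 435 where the shared Toxf/f library stood for replicate 1 and 868 where it stood for replicate 2, and Gimap3, Gimap4, Gimap7 and Gimap8 were called in both, Gimap4 at a log2 fold change of -2.13 and -3.00. In the first of these fits the log2 fold change of Gimap1 was -0.098, against 0.076, and it was -0.094 to 0.17 when a library was left out. The numbers are not known to pair the samples. Deviations from the genotype mean correlated at -0.157 between the replicates numbered 3, at 0.105 between those numbered 2 and at -0.198 between those numbered 1. The deviations of 2 Toxf/f libraries mirror each other, and 1 library stands for both replicates 1 and 2. These correlations therefore cannot settle whether the numbers pair the samples. The neighbour ratios kept their direction under each alternative run. With 2 Toxf/f libraries the spread of that genotype rests on 1 difference, which limits every test here.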
